A study of Mus musculus with 14 samples.

Results

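Mural cells wrap the walls of blood vessels. Pericytes sit on capillaries, and vascular smooth muscle cells sit on arterioles and larger vessels. Endothelial cells release PDGF-B, and mural cells carry its receptor PDGFR beta, a signal that is needed for pericytes to populate new vessels. In islets, which are densely supplied with capillaries, pericytes are known to adjust local blood flow. The transcripts described here are 10 genes used as marks of mural cells or of their bond with the endothelium, out of 52459 genes in the count table. They were chosen by gene symbol: Abcc9 and Kcnj8 (a potassium channel), Rgs5 (a regulator of G protein signalling), Pdgfb and Pdgfrb (ligand and receptor), Cspg4, Des and Mgp (surface, filament and matrix proteins), and Acta2 and Tagln (contractile proteins).

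RNA was sequenced from cells of dispersed pancreatic islets of male C57BL/6J mice, an inbred strain, at an age of 7 months. The cells were sorted on acidic beta-galactosidase activity, which is widely used as a mark of cellular senescence, into 7 beta-galactosidase-negative and 7 beta-galactosidase-positive libraries, numbered 1 to 7 in each group and below called negative and positive. Every library shares the strain, sex, age and tissue, and the labels name no gate for a cell type and do not say how many animals a library holds. Total counts ran from 11060144 to 24577025 reads. Beta cell markers summed to between 99460 and 154516 CPM (counts scaled to a library of 1000000) in every library, among them insulin (Ins2). The mean of this sum was 136329 ± 15742 CPM in negative and 117213 ± 10881 CPM in positive libraries (± SD). Of the 11 markers 1 was called, Trpm5, which fell, where 1.63% of all genes tested fell. With the replicate number as a block 6 were called and 0 of them were higher, where 19.6% of all genes were called.

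Markers of several other cell types moved with the groups or with 1 library, and their part in the results below was not tested. Of 14 endothelial markers, 13 were tested and 13 rose, and their summed level was 8.16 to 73.3 CPM in negative and 385 to 1312 CPM in positive libraries. Cldn5 had no read in any of the 7 negative libraries, and Cdh5, Tie1, Emcn, Plvap and Robo4 had none in 1 negative library each. Of 13 macrophage markers 13 rose, from a summed 17.8 to 25.0 CPM to between 83.2 and 745 CPM, with Tyrobp, Adgre1 and Ptprc at 0 in 4 negative libraries each. Negative 6 and 7 and positive 6 and 7 held the most endothelial and macrophage reads of their groups. Of 4 delta cell markers 3 were tested and 2 rose (Sst and Hhex), with a summed mean of 226 ± 133 CPM in negative and 1186 ± 631 CPM in positive libraries (± SD). Of 10 acinar markers 4 fell (Clps, Pnlip, Cpb1 and Cel), with a summed mean of 611 ± 521 and 192 ± 283 CPM. Of 6 alpha cell markers 1 fell (Slc7a2), with a summed mean of 18667 ± 7750 and 13027 ± 8377 CPM. Among all genes tested 6.40% rose and 1.63% fell. The 14 fibroblast and stellate cell markers summed to 1522 CPM in negative 3, against 19.0 to 70.3 CPM in the other negative and 13.1 to 230 CPM in the positive libraries. No marker of that list was at 0 in negative 3, and Pdgfra, the receptor that marks fibroblasts, was at 9.68 CPM there and at most 0.53 CPM in the other negative libraries. Values are therefore given with and without negative 3 where they differ. In these bulk libraries a change in the number of cells of a type and a change in RNA per cell cannot be told apart.

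**Figure D1:**
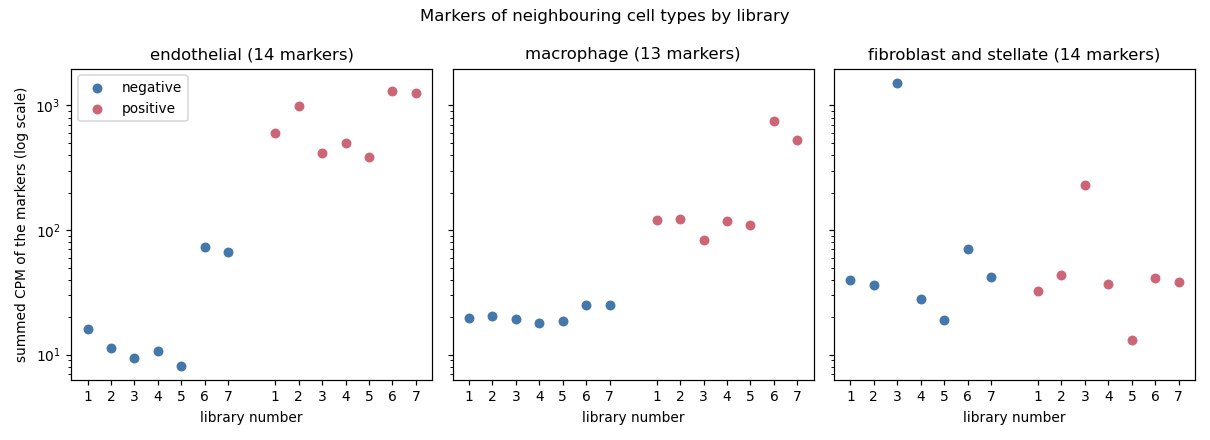
Summed CPM (log scale) of endothelial, macrophage, and fibroblast and stellate markers in each of the 7 negative and 7 positive libraries, 1 point a library. Endothelial and macrophage sums are higher in every positive than in every negative library, while the fibroblast sum of negative 3, 1522 CPM, stands above all other libraries.

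The stretches just before the start sites of 3 genes that rose are shown to place the group in the genome, with short windows from Acta2, which was not called. They are RefSeq sequences on GRCm38.p6, written 5′ to 3′ on the strand of the gene (plus for Rgs5, minus for the others), and that of Abcc9 stops at the start of the gene in GENCODE. Kcnj8 (chromosome 6, 142564837 to 142571614, minus strand) and Abcc9 (chromosome 6, 142587862 to 142702315, minus strand) are neighbours, with 16247 bases between them. Rgs5 lies on chromosome 1 (169655501 to 169695813, plus strand). Capitals mark the motifs searched, except that in the Acta2 windows they mark only the CArG-like boxes described below.

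Rgs5, chr1:169655251-169655500: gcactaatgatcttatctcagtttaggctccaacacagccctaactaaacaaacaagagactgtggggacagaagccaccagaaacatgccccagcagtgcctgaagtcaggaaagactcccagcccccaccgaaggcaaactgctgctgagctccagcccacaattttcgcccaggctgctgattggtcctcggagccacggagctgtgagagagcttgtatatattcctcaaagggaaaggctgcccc
Kcnj8, chr6:142571615-142571864: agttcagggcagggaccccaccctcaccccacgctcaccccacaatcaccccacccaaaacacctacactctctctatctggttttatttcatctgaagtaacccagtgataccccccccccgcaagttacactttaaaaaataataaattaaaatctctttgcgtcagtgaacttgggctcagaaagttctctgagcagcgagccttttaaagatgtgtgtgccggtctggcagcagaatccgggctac
Abcc9, chr6:142702316-142702524: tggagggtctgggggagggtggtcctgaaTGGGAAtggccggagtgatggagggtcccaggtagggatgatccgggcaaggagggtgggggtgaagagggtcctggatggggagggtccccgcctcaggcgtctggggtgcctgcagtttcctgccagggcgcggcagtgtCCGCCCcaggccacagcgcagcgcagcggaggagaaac
Acta2, chr19:34255438-34255467: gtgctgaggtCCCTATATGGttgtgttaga
Acta2, chr19:34255388-34255417: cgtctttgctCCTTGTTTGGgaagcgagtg

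Promoters of 6 of the 10 genes were in the sequence table, those of Abcc9, Kcnj8, Rgs5, Des, Cspg4 and Acta2, and both strands of the 250 bases before each RefSeq start were searched. The CArG box, the site of serum response factor in smooth muscle genes, was in 0 of the 6, and in 1.47% of 32851 promoters. A CArG-like box, with 1 G or C inside the core, was in 1 of the 6 and in 7.24% of all promoters. Acta2 held it at 2 places, starting at −84 and −34 from the RefSeq start site, the capitals in its windows above. Both windows lie inside the gene as given in GENCODE, which starts further upstream, at 34255590. TGGGAA, the core read by the Notch partner RBPJ, was in Abcc9 at −221 and in Acta2 at −27, where it overlaps the second box, and in 21.6% of all promoters. GGGCGG, the core read by SP1, was in Abcc9, Des and Cspg4 and in 32.7% of all promoters. TATAAA was in 0 of the 6 and in 12.4% of all promoters. In the 250 bases before Rgs5 and Kcnj8 none of these letters was found.

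Of the 10 genes, 9 had enough reads to be tested and 6 rose in positive libraries (edgeR's quasi-likelihood test, Benjamini-Hochberg adjusted p below 0.05), where 6.40% of the 16350 genes tested rose, 1.63% fell and 8.03% were called in either direction. These were Rgs5, Abcc9, Mgp, Pdgfb, Des and Pdgfrb. Cspg4, Acta2 and Tagln were not called, and none of the 9 fell. Kcnj8 had too few reads and was tested in a fit without the count filter. For 5 of the 10 genes (Abcc9, Kcnj8, Rgs5, Pdgfb and Mgp) every positive library was above every negative library, against 3.50% of genes tested. In 7 of 7 numbered pairs 6 of the 10 were higher, against 11.1% of genes tested. Kcnj8 counts in the 5 and the 6 but is not among the genes tested. Without negative 3, all 10 passed the filter and 8 rose, where 7.63% of all genes tested rose and 11.3% were called. Kcnj8, among the 8, passed there through its positive libraries, as no negative library exceeded 0.370 CPM. Its place among the 8 is therefore no support of its own. Without that library the groups did not overlap for 8 of the 10, Kcnj8 among them. The share was 4.99% of the 16350 genes tested with all libraries, which leave out Kcnj8. DESeq2 called 7 of the 10, Kcnj8 among them, where it called 7.09% of all genes higher and 9.20% in either direction. Without the 4 libraries numbered 6 and 7, which held the most endothelial reads, 3 of the 10 rose (Abcc9, Rgs5 and Pdgfb), against 3.28% of all genes higher and 3.55% called. With the replicate number as a block 6 rose, where 11.8% of all genes did.

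**Figure D2:**
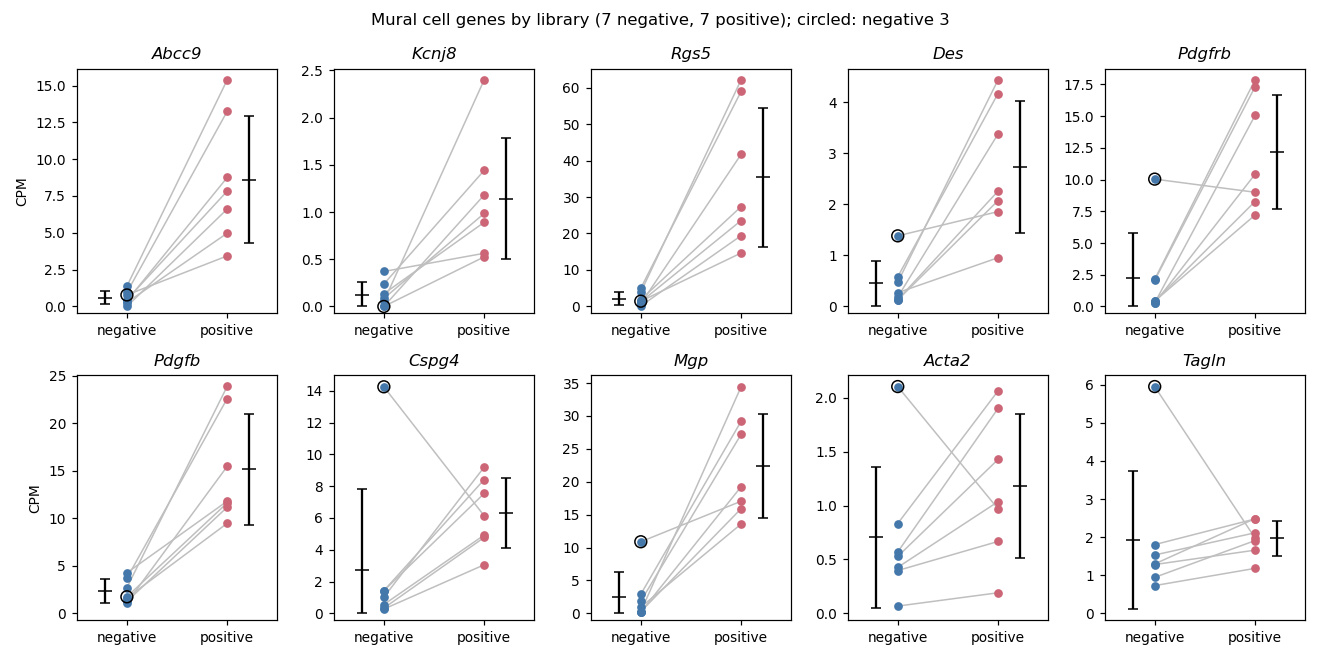
CPM of each of the 10 genes in 7 negative and 7 positive libraries, 1 point a library, with lines joining libraries of the same number and bars giving mean and SD (the lower arm ends at 0). Negative 3, circled, is the highest negative library for Des, Pdgfrb, Cspg4, Mgp, Acta2 and Tagln, and lies among the others for Abcc9, Rgs5 and Pdgfb.

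Abcc9 and Kcnj8 encode the SUR2 and Kir6.1 subunits of the ATP-sensitive potassium channel of vessel walls. Abcc9 stood at 0 to 1.38 CPM in negative libraries (median 0.463) and at 3.43 to 15.4 CPM in positive libraries (median 7.83). The groups did not overlap, and negative 5 had no read, which allows up to 0.202 CPM (3 counts). Its log2 fold change was 3.76 ± 0.49 (SE, adjusted p = 0.000188). Kcnj8 had few reads, 14 over the 7 negative and 148 over the 7 positive libraries. It ran from 0 to 0.370 CPM in negative (median 0.0854) and from 0.525 to 2.40 CPM in positive libraries (median 0.984), again without overlap. Negative 3 and negative 4 had no read, which allows up to 0.180 and 0.199 CPM. In the fit without the filter, where 3.94% of 31875 genes rose and 4.80% were called, its log2 fold change was 3.18 ± 0.51 (adjusted p = 0.000557). An antisense gene inside Abcc9, 5330439B14Rik, had a mean of 0.652 CPM in negative and 0.823 CPM in positive libraries. Strand use in the counting was not given in the sources used here.

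Beta cells build the same channel from other subunits, Abcc8 and Kcnj11, so the paralogs were set beside them. Abcc8 averaged 857 ± 138 CPM over the 7 negative and 745 ± 80.2 CPM over the 7 positive libraries (± SD), and its log2 fold change was −0.20 ± 0.10 (SE, adjusted p = 0.264). Kcnj11 averaged 92.8 ± 18.2 and 77.5 ± 8.13 CPM, with −0.26 ± 0.11 on the log2 scale (adjusted p = 0.172). For this pair edgeR called 0 of 2 and DESeq2 0, and 1 had an unadjusted p below 0.05. With the replicate number as a block both fell (adjusted p = 0.0171 and 0.00871). Per kilobase of exon, Abcc9 reached a mean of 1.03 CPM in positive libraries and Abcc8 92.0 CPM, and Kcnj8 reached 0.448 CPM and Kcnj11 21.1 CPM. The vascular subunits rose and were still far below those of the beta cell in the same libraries.

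Rgs5, which speeds the shutdown of G protein signals and is among the most used pericyte marks, had the largest fold change of the 9 genes tested with all 14 libraries, while without negative 3 that of Mgp was larger (4.25 against 3.92). It ran from 0.135 to 5.02 CPM in negative libraries (median 1.44) and from 14.7 to 62.1 CPM in positive libraries (median 27.4). The highest negative libraries were 6 and 7, at 5.02 and 3.94 CPM, and the highest positive libraries carried the same numbers, at 58.9 and 62.1 CPM. On the log2 scale it rose by 4.02 ± 0.53 (SE, adjusted p = 0.000292), and by 4.46 without the 4 libraries numbered 6 and 7 (adjusted p = 6.94e-05). Of 8 other R4 family members, near relatives of Rgs5, 5 were tested, 2 rose and 1 fell. Of all genes tested 6.40% rose and 1.63% fell. Rgs1, known from immune cells, rose by 5.43 and Rgs3 by 0.46, while Rgs16 fell by 1.04 on the log2 scale. Rgs2 had the highest CPM of the list, and its change was −0.12 (adjusted p = 0.838). With the replicate block 4 of the 5 were called, where 19.6% of all genes were, the added one being Rgs4, which fell by 0.54 (adjusted p = 0.000164) and was lower in 7 of 7 pairs. The median log2 fold change of the 5 was −0.12, against 0.00037 for all genes tested.

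Pdgfb encodes the ligand made by endothelial cells, and among the 10 genes it stands for the endothelial side. It lies on chromosome 15 (79995874 to 80014977). Pdgfb was at 1.11 to 4.27 CPM in negative libraries (median 1.74) and at 9.48 to 23.9 CPM in positive libraries (median 11.8). The groups were far apart, and Pdgfb rose by 2.65 ± 0.32 on the log2 scale (SE, adjusted p = 0.000115). Without negative 3 it rose by 2.56.

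Pdgfrb, the receptor on mural cells and also on fibroblasts (chromosome 18, 61045150 to 61085061), was close to the call threshold. It ran from 0.265 to 10.04 CPM in negative (median 0.427) and from 7.20 to 17.9 CPM in positive libraries (median 10.4). The groups overlapped through negative 3 alone, whose 10.04 CPM exceeded the 2.14 CPM of the next negative library. The log2 fold change was 2.42 ± 0.69 (SE, adjusted p = 0.0466), and it was 3.60 ± 0.47 without negative 3 (adjusted p = 0.000266). Its call was lost when any single library other than negative 3 was left out, with adjusted p of 0.0533 to 0.0947. It was also lost without the count filter (adjusted p = 0.0915) and without the 4 libraries numbered 6 and 7 (adjusted p = 0.382). Pdgfrb stayed called with the replicate block (3.04, adjusted p = 0.0241) and in DESeq2 (adjusted p = 0.0143).

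Of 18 other genes of PDGF signalling, 16 were tested, 2 rose and 14 were not called, with a median log2 fold change of 0.06. Of all genes tested 6.40% rose. Those that rose were Plau (4.68 ± 0.73, SE, adjusted p = 0.00097) and Plat (1.64 ± 0.35, adjusted p = 0.00916), the plasminogen activators that can cleave the latent ligands PDGF-D and PDGF-C. The ligand Pdgfa averaged 82.2 ± 14.6 CPM over the 7 negative and 84.2 ± 11.04 CPM in positive libraries (± SD), and its change of 0.04 was not called (adjusted p = 0.893). Shc1, an adaptor and the gene with the highest CPM here, averaged 278 ± 59.0 and 228 ± 30.9 CPM, and its change of −0.29 was not called (adjusted p = 0.194). With the replicate block 8 of the 16 were called, 5 higher and 3 lower, where 19.6% of all genes were called. Without negative 3, 4 were called, where 11.3% of all genes were. Pdgfra, the other receptor, fell below the count filter. It was at 9.68 CPM in negative 3 and at 1.49 CPM in positive 3, with all other libraries at or below 0.576 CPM.

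**Figure D3:**
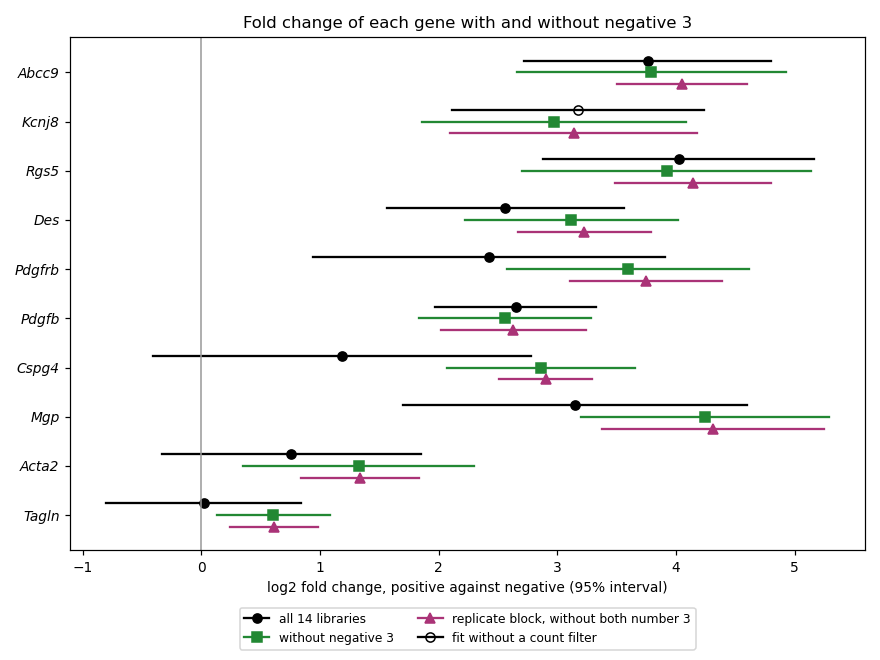
Log2 fold change of each gene with its 95% interval, from all 14 libraries (black), without negative 3 (green) and with the replicate block and without both libraries numbered 3 (purple); the open circle for Kcnj8 is the fit without a count filter. Abcc9, Kcnj8, Rgs5 and Pdgfb move little between the fits, while Cspg4 goes from 1.19 to 2.86 without negative 3.

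Cspg4 encodes NG2, a surface proteoglycan of pericytes and of glial progenitors (chromosome 9, 56865033 to 56899870). It was at 0.270 to 14.2 CPM in negative libraries (median 1.02) and at 3.05 to 9.19 CPM in positive libraries (median 6.14). Negative 3, at 14.2 CPM, was the highest of all 14 libraries, and every other negative library was at or below 1.43 CPM, under the lowest positive one. The log2 fold change was 1.19 ± 0.74 (SE, adjusted p = 0.39), with a 95% interval of −0.41 to 2.78. Without negative 3 it was 2.86 ± 0.37 (adjusted p = 0.000189), so that library alone decides whether the gene is called.

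Des encodes desmin, the intermediate filament of muscle and pericytes (chromosome 1, 75360329 to 75368579). It was at 0.128 to 1.38 CPM in negative (median 0.270) and at 0.954 to 4.44 CPM in positive libraries (median 2.26). Negative 3 exceeded positive 5, the lowest positive library, and no other values crossed. Des rose by 2.56 ± 0.47 on the log2 scale (SE, adjusted p = 0.00214), and by 3.12 ± 0.42 without negative 3. Without the 4 libraries numbered 6 and 7 the change was 2.30 and was no longer called (adjusted p = 0.0592). Of 7 other filament genes and desmin partners, 3 rose and 0 fell (median 1.15), against 6.40% of all genes tested that rose. With the block 5 were called, against 19.6% of all genes. Nes, the filament nestin, rose by 3.87, Prph by 2.24 and Synm, which joins desmin filaments, by 1.15, while the linker Plec, with the highest CPM, had 0.30 (adjusted p = 0.113). Without negative 3, Synm was no longer called (adjusted p = 0.0668) and the filament vimentin (Vim) was (adjusted p = 0.00185). Without negative 6, 1 of the 7 was called.

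Mgp encodes matrix Gla protein, a secreted inhibitor of vessel calcification (chromosome 6, 136872435 to 136875823). It was at 0.199 to 10.9 CPM in negative libraries (median 0.939) and at 13.6 to 34.4 CPM in positive libraries (median 19.2). The groups did not overlap, although negative 3, at 10.9 CPM, came close and the next negative library had 2.91 CPM. Mgp rose by 3.15 ± 0.67 on the log2 scale (SE, adjusted p = 0.00932), and by 4.25 ± 0.48 without negative 3 (adjusted p = 0.00014). The call was lost without the 4 libraries numbered 6 and 7 (2.96, adjusted p = 0.178). Of 8 genes of Gla protein processing and calcification, 7 were tested and edgeR called 0 (median 0.11), DESeq2 called 0, and 2 had an unadjusted p below 0.05. The carboxylase Ggcx, which activates Mgp, had −0.27 (adjusted p = 0.36) and the matrix protein Spp1, with the highest CPM, 0.80 (adjusted p = 0.159). With the block 3 were called, 2 of them higher, where 19.6% of all genes were called and 11.8% rose.

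Acta2, the smooth muscle actin (chromosome 19, 34241090 to 34255590), was low in both groups. It ran from 0.0674 to 2.10 CPM in negative (median 0.528) and from 0.191 to 2.06 CPM in positive libraries (median 1.04). Negative 3 was the highest library of all and positive 5 the second lowest, so the groups overlapped widely. The log2 fold change was 0.76 ± 0.51 (SE, adjusted p = 0.435), with a 95% interval of −0.34 to 1.85. Without negative 3 it was 1.32 ± 0.46 (adjusted p = 0.0767).

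Tagln encodes transgelin, an actin-binding protein of smooth muscle (chromosome 9, 45929619 to 45936058). It was at 0.728 to 5.95 CPM in negative (median 1.30) and at 1.18 to 2.49 CPM in positive libraries (median 1.98). Negative 3 again lay above all other libraries. Its log2 fold change of 0.02 ± 0.39 (SE, adjusted p = 0.984), with a 95% interval of −0.80 to 0.84, changed sign under several settings. It was 0.61 ± 0.22 without negative 3 (adjusted p = 0.0983). Tagln shares 108 bases at its end with Pcsk7, a protease gene on the other strand at a mean of 32.0 CPM in negative and 30.1 CPM in positive libraries, and without the strand setting reads of that stretch cannot be assigned. In pairs of libraries both contractile genes were higher on the positive side in 6 of 7, the exception being pair 3. With the replicate block and without both libraries numbered 3, a fit chosen after the data were seen, Acta2 rose by 1.34 ± 0.23 (SE, adjusted p = 0.00106) and Tagln by 0.61 ± 0.17 (adjusted p = 0.0211) on the log2 scale. In that fit all 10 genes rose, where 12.9% of all genes tested rose and 23.5% were called. Kcnj8 again passed the filter through its positive libraries alone.

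The fold changes of Acta2 and Tagln were the smallest of the 10, and the difference was tested directly, by tests chosen after the data were seen. For each of 45 pairs of genes, the log2 ratio of their reads in a library was compared between the groups with a two-sided exact permutation test, in which 0.000583 is the smallest p that 7 against 7 libraries can give. This test takes the libraries as unpaired. After Benjamini-Hochberg adjustment over the 45, 26 pairs differed in their change. Among them were all 16 pairs of Acta2 or Tagln with another gene, and 10 of the 28 pairs among the other 8 genes. Acta2 and Tagln were set apart for their small changes in these same libraries. The larger share among their pairs therefore follows largely from that choice. Without negative 3, 28 pairs differed, 15 of the 16 and 13 of the 28. An exact test that flips signs within the 7 numbered pairs of libraries, with 0.0156 as its smallest p, found 22 to differ, 13 of the 16 and 8 of the 28. The 3 of the 16 that did not pass there were Kcnj8 with Acta2, Kcnj8 with Tagln and Cspg4 with Acta2 (adjusted exact p = 0.0541 each). Rgs5 rose by 3.59 more than Acta2 on the log2 scale (adjusted exact permutation p = 0.00238) and Mgp by 4.03 more than Tagln (adjusted exact permutation p = 0.00238). Acta2 and Tagln themselves differed by 0.58, which did not pass in the unpaired test (adjusted exact permutation p = 0.411) and passed within the numbered pairs (7 of 7 pairs, adjusted exact p = 0.032). Rgs5 and Abcc9 differed by 0.29 on that scale with Rgs5 the higher, which did not pass (adjusted exact permutation p = 0.487), while Rgs5 rose by 1.74 more than Pdgfb (adjusted exact permutation p = 0.00562).

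Some other contractile genes were called where Acta2 and Tagln were not. Of 12 further smooth muscle genes, 7 were tested, 3 rose and 4 were not called (median 0.83). Of all genes tested 6.40% rose and 8.03% were called. Mylk, the kinase that starts smooth muscle contraction, rose by 3.32 ± 0.53 (SE, adjusted p = 0.000645), and Smtn, smoothelin, by 2.79 ± 0.37 (adjusted p = 0.000201). The myosin heavy chain Myh11 averaged 1.34 ± 0.445 CPM in negative libraries and 3.99 ± 1.85 CPM in positive ones, a rise of 1.57 (adjusted p = 0.00169) without overlap of the groups. Mylk and Smtn are not limited to muscle. The remaining genes of this list had too few reads to be tested with the count filter, and they differed among themselves. Lmod1 and Myocd had 2 reads each over the 7 negative libraries and 31 and 25 over the 7 positive ones. Cnn1 had 17 and 24 reads, Actg2 had 3 and 9, and Pln had 4 and 3. Of 12 serum response factor and actin genes, 3 rose, Cnn2 (1.83), Flna (0.71) and Mkl2 (0.34), and 0 fell (median 0.26), against the same 6.40%. Actb, with the highest CPM, had 0.17 (adjusted p = 0.377). Without negative 3 the smooth muscle count stayed at 3 and the actin count was 4, where 7.63% of all genes tested rose.

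Of 20 further mural genes, 11 were tested, 5 rose, 1 fell and 5 were not called (median 1.09). Of all genes tested 6.40% rose and 1.63% fell. Mcam, an adhesion protein shared by pericytes and endothelium, rose by 4.54 ± 0.48 (SE, adjusted p = 8.79e-05), the sphingosine phosphate receptor S1pr3 by 3.39 ± 0.48 (adjusted p = 0.000298) and Notch3, the Notch receptor of mural cells, by 2.87 ± 0.45 (adjusted p = 0.000648). The Notch target Heyl rose by 1.91 (adjusted p = 0.0239) and the endothelin receptor Ednra by 1.56 (adjusted p = 0.00101). Anpep, an aminopeptidase that pericytes and other cells express, averaged 101 ± 12.6 CPM in negative and 66.4 ± 11.2 CPM in positive libraries, and fell by 0.60 on the log2 scale (adjusted p = 0.00137), with every negative library above every positive one. The 9 that fell below the count filter differed among themselves. Higd1b had no read in any negative library and 17 over the positive ones, and Cox4i2 had 3 and 31. Foxs1 had 7 and 41 reads, Casq2 had 3 and 36, Art3 had 7 and 28 and Vtn had 15 and 33. Steap4 had 79 and 91 reads, P2ry14 had 52 and 73, and Tbx18 had 2 and 3. With the block, 9 of the 11 were called, 7 higher and 2 lower, where 19.6% of all genes were called and 11.8% rose.

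Genes of signals between endothelium and mural cells were listed as well. Of 12 such genes, 11 were tested, 10 rose and 0 fell (median 3.69), where 6.40% of all genes tested rose. Of the 13 endothelial markers tested 13 rose in the same libraries (median 5.05), and their part in this count was not tested. The lipid receptor S1pr1 rose by 5.08, the activin receptor-like kinase Acvrl1 by 5.03, endoglin (Eng) by 4.80 and the angiopoietin receptor Tek by 4.50, all 4 best known from endothelial cells. Cdh2, a cadherin at contacts of both cell types and the gene with the highest CPM here, averaged 107 ± 9.88 and 109.9 ± 12.7 CPM (± SD), a change of 0.04 (adjusted p = 0.838). Angpt1, the ligand that mural cells send to Tek, had 13 reads over the negative and 7 over the positive libraries and was not tested. Of 14 fibroblast and stellate markers 6 were tested and edgeR called 0, 0 had an unadjusted p below 0.05, and DESeq2 called 2. Without negative 3, 2 rose, Dcn (1.84) and Thy1 (1.43), named after their values were seen. In that fit 7.63% of all genes tested rose.

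Levels between genes can be compared per length. Per kilobase of exon, the means in positive libraries were 18.8 CPM for Mgp, 7.78 for Rgs5, 3.64 for Pdgfb, 2.22 for Pdgfrb, 1.03 for Abcc9, 0.992 for Tagln, 0.728 for Des, 0.537 for Acta2, 0.527 for Cspg4 and 0.448 for Kcnj8. The 4 steps from Mgp down to Abcc9 each held in 7 of 7 positive libraries, while each of the 5 steps from Abcc9 down to Kcnj8 held in 3 to 6 of 7, a description without a test since the order came from the same libraries. In negative libraries Mgp was at 2.08 ± 3.23 and Tagln at 0.973 ± 0.909 CPM per kilobase (SD, n = 7), a spread set by negative 3.

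**Figure D4:**
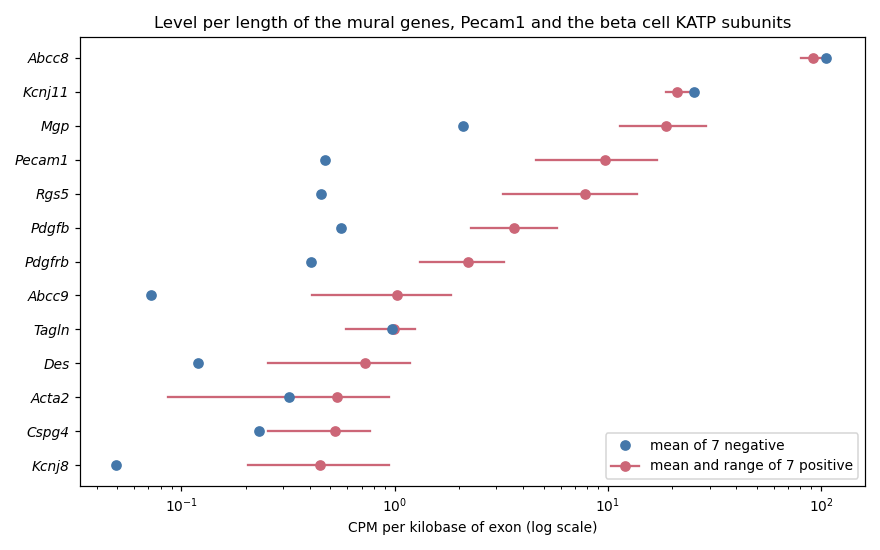
CPM per kilobase of exon (log scale) for the 10 genes, the endothelial marker Pecam1 and the beta cell channel subunits Abcc8 and Kcnj11, with the mean of 7 negative libraries (blue) and the mean and range of 7 positive libraries (red). Abcc8 and Kcnj11 lie above all mural genes in the mean of either group, and Tagln has nearly the same mean in both groups.

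Because endothelial reads rose in the same libraries, each gene was also set against them, as reads per 1000 reads of the 14 endothelial markers, a description without a test. Endothelial marker reads numbered 121 to 1396 in negative and 6053 to 22968 in positive libraries. Rgs5 had 35.2 to 50.4 reads per 1000 in positive libraries (median 45.4), a narrow range although endothelial reads varied widely among these libraries. In negative libraries Rgs5 had 16.5 to 154 per 1000 (median 68.4), so the groups overlapped. Mgp had 21.6 to 41.3 per 1000 in positive libraries (median 34.8) and 18.8 to 58.4 in negative libraries other than negative 3, where it had 1160. Acta2 had 0.496 to 2.33 per 1000 in positive libraries (median 1.51) and 7.20 to 224 in negative libraries (median 26.5), without overlap. Tagln had 1.61 to 4.96 and 20.9 to 635. Pdgfb had 15.6 to 27.9 per 1000 in positive and 40.8 to 265 in negative libraries, and Pdgfrb had 11.9 to 21.6 and 24.8 to 1071. Cspg4 had 5.75 to 14.7 in positive and 19.5 to 1519 in negative libraries, and Des had 2.48 to 4.51 and 7.16 to 147. Relative to endothelial reads, Acta2, Tagln, Pdgfb, Pdgfrb, Cspg4 and Des were therefore lower in every positive than in every negative library. The endothelial reads themselves did not overlap between the groups, so a gene without any change would be lower on this scale too. The share of all genes that separate in this way was not computed, and the ratios are no result particular to these genes. The ranges overlapped for Rgs5, Mgp, Abcc9 (7.91 to 17.2 in positive, 0 to 83.3 in negative libraries) and Kcnj8 (0.569 to 2.36 and 0 to 33.1).

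**Figure D5:**
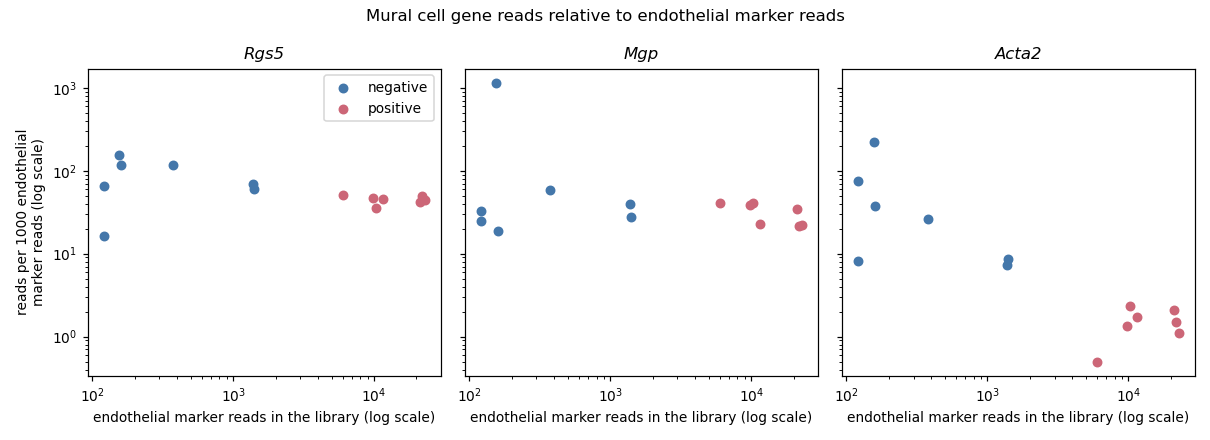
Reads of Rgs5, Mgp and Acta2 per 1000 endothelial marker reads (log scale) against the endothelial marker reads of the library (log scale), 1 point for each of 7 negative and 7 positive libraries. Rgs5 lies between 35.2 and 50.4 in all positive libraries, and Acta2 lies lower in every positive than in every negative library.

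Deviations from the group means over the 14 libraries described which genes varied alike. They were taken on log2 CPM and compared among 13676 genes of average log2 CPM of at least 1. Rgs5 was most like Hecw2 (Pearson r = 0.96, Spearman rho = 0.96), Acvrl1 (0.95 and 0.92), Ednrb (0.95 and 0.94), Flt4 (0.93 and 0.89) and Stc1 (0.93 and 0.91). All 5 were higher in positive libraries, by 4.28 to 5.28 on the log2 scale. Acta2 was most like Cav1 (0.93 and 0.95), Olfml2b (0.92 and 0.94), Thbs1 (0.91 and 0.92), Adcy3 (0.91 and 0.92) and Lhfpl2 (0.90 and 0.91), of which Cav1 and Thbs1 rose. Between the genes themselves the closest pairs were Pdgfrb with Mgp (0.96 and 0.95), Cspg4 with Tagln (0.94 and 0.90) and Abcc9 with Rgs5 (0.91 and 0.83). Libraries of the same number share deviations, and negative 3 was the highest negative library for all 4 genes of the first 2 of these pairs.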

How the data were processed

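The authors deposited whole-number read counts for each gene in 14 libraries. Per the labels' protocols and the submitters' processing notes, polyadenylated RNA went into directional libraries, Subread and featureCounts were used with GRCm38. Tool versions, gene models, use of strand and the handling of reads with several matches are not given in the sources used here. Total counts were 11060144 to 24577025 per library. The test was that of edgeR 4.0.16, run in R 4.3.3 (filterByExpr, leaving 16350 genes; TMM factors 0.969 to 1.03; robust quasi-likelihood F-test with group as the term; Benjamini-Hochberg adjustment over all genes tested). CPM use the TMM-scaled library sizes; ratios of reads between genes used 0.5 added to each count. The labels do not tie libraries to animals. The p-values then reflect variation among these libraries alone, which may be technical. Same-numbered libraries deviated together from their group means (correlations across genes of 0.203 to 0.541 in 7 pairs, median of −0.125 for different numbers), so the numbers, taken from the titles, were taken as pairs and a fit with the replicate block was added. Coordinates and exon lengths come from GENCODE M21 on GRCm38 and promoters from RefSeq on GRCm38.p6. On simulated data with 200 changed genes, where 16187 were tested for positive against negative, 85.7% of changes of 1 and 97.9% of changes of 2 on the log2 scale were recovered. The changed genes were drawn at random, and the simulated libraries held no pairing and no outlying library such as negative 3. The recovery may therefore not hold for the 10 genes. The genes and lists were chosen with earlier results of these data known. Named were all 10 genes, and from each further list up to 4 called genes with the largest change and the most abundant gene. For Rgs5 and Acta2 the 5 genes with the highest Pearson r were named. Pdgfa, Ggcx, Ednra, Lmod1, Myocd, Higd1b, Cox4i2, Angpt1, Pdgfra, Dcn, Thy1, Vim, Rgs4 and markers at 0 were named in addition, after their values were seen. The other smooth muscle and further mural genes below the count filter were also named after their values were seen. Alternatives were DESeq2 1.42.0, its size factors, no count filter, the replicate block, each library left out in turn, and the libraries numbered 6 and 7 left out; the fit without both libraries numbered 3 and the tests of pairs of genes were added after the data were seen.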

Additional observations from a re-analysis of the deposited data

Results flagged for a closer look

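Single libraries that stood apart from the rest of their group were looked for in 58 groups of 7 values, as the gap to the nearest library divided by the range of the group (Dixon's criterion at 95%). Chance alone flags about 1 in 20 groups, and 11 of the 58 were flagged. In the negative group, negative 3 stood apart as the highest library for Cspg4 (0.917), Pdgfrb (0.809), Tagln (0.794), Mgp (0.747), Des (0.639) and Acta2 (0.624). It also stood apart for the summed fibroblast and stellate markers (0.966) and, as the lowest, for the summed beta cell markers (0.638). For Abcc9, Kcnj8, Rgs5 and Pdgfb no library stood apart in either group. In the positive group, positive 3 stood apart for fibroblast and stellate markers (0.859), positive 1 for acinar markers (0.780) and positive 2 for mesothelial markers (0.623).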

How the results depend on the processing

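Abcc9, Rgs5 and Pdgfb rose under every setting run, and Kcnj8 in every fit without the filter. Without single libraries, log2 fold changes were 3.54 to 4.13 for Abcc9, 3.81 to 4.37 for Rgs5, 2.49 to 2.85 for Pdgfb, 2.35 to 3.12 for Des, 2.93 to 4.25 for Mgp, 2.21 to 3.60 for Pdgfrb, 0.97 to 2.86 for Cspg4, 0.55 to 1.32 for Acta2 and −0.14 to 0.61 for Tagln; the highest value was without negative 3 for Des, Mgp, Pdgfrb, Cspg4, Acta2 and Tagln. Tagln was also lower without the filter (−0.0020) and without the libraries numbered 6 and 7 (−0.16). The genes called of the 10 numbered 6, against 5 to 8 without single libraries, 3 without the libraries numbered 6 and 7 (3.28% of all genes higher), and 10 with the replicate block and without both libraries numbered 3; the block alone left 6. The 8 and the 10 include Kcnj8, which passed the filter in those fits through its positive libraries alone. Of all genes, 1047 were higher and 266 lower. The block gave 1930 and 1270, DESeq2 1602 and 477, leaving out numbers 6 and 7 gave 536 and 45, and the block without number 3 gave 2116 and 1733; single libraries gave 825 to 1267 and 140 to 616. The lower count was 616 without negative 3, and 160, 140 and 162 without positive 3, 6 and 7. The cause was not tested. Calls in further lists moved as follows. With the replicate block they were 8 for PDGF signalling, 2 for the beta cell channel, 5 for filaments and 3 for Gla genes. That fit called 19.6% of all genes tested. With the block and without number 3 they were 10 for further mural genes, 5 for smooth muscle, 7 for actin genes, 8 for PDGF signalling, 2 for the channel, 6 for filaments and 3 for Gla genes. The latter fit called 23.5% of all genes tested. DESeq2 called 10 mural, 5 smooth muscle and 5 PDGF genes, where it called 9.20% of all genes. Without the filter 5 smooth muscle and 1 Gla gene were called, where 4.80% of all genes were. Without numbers 6 and 7, 1 actin and 1 PDGF gene were called, where 3.55% of all genes were. Without single libraries the counts were 5 to 7 mural, 2 to 4 actin, 2 to 4 PDGF and 1 to 3 filament genes. Of the pairs of genes 26 differed in change, 28 without negative 3 and 22 with signs flipped within the replicate block. Kcnj8 had 14 reads over the negative libraries, which limits the precision of its fold change.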
